A study of Mus musculus with 24 samples.

Results

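The genes described here are the 2 receptors of resolvin E1, Cmklr1 and Ltb4r1, the lipoxin A4 receptor Fpr2, and 7 enzymes or enzyme partners that make eicosanoids, Alox5, Alox5ap, Alox15, Alox12, Lta4h, Ptgs1 and Ptgs2. They were chosen by name, and the rows carrying these symbols were taken, so the set held 10 of the 51138 genes in the table. All 10 passed the filter of at least 10 counts over all samples, as did 30564 genes in all.

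Resolvin E1 (RvE1) is a lipid mediator made from the omega-3 fatty acid EPA, and it acts on leukocytes through ChemR23, the product of Cmklr1, and as a partial agonist of the leukotriene B4 receptor BLT1, the product of Ltb4r1. Lipoxygenases and cyclooxygenases turn polyunsaturated fatty acids released from membranes into leukotrienes, lipoxins, resolvins, prostaglandins and thromboxane, so the same enzymes serve both the start and the resolution of inflammation. Neutrophils, macrophages and eosinophils are known for many of these genes, whereas cyclooxygenases are also found in stromal cells.

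Whole constructs of 40 mg biphasic calcium phosphate granules were removed at week 2 from pockets under the back skin of Foxp3 DTR/eGFP mice, aged 8 to 9 weeks, with 2 constructs of the same kind per mouse and 4 animals per group. In BCP the granules carried no cells, and in MSC they carried 800000 bone marrow stromal cells grown from wild-type C57BL/6J mice. In R these cells had been primed with 10 nM RvE1, and in T they had been cocultured with activated regulatory T cells (Treg) sorted from spleens of the host strain. DT and DTR carried the same construct as MSC in mice given diphtheria toxin at 50 µg/kg, and DTR also received daily local injections of 1 µM RvE1. Whether DT received a vehicle injection is not given in the sources used here. All hosts, toxin-treated or not, carried the toxin receptor under Foxp3, and no group received toxin without MSC or injected RvE1 without toxin. RNA came from seeded and invading cells together, so fewer cells of a type and less RNA per cell cannot be told apart.

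The libraries held 8482701 to 144417743 counts, and the 7 shallowest of the 24, found in every group but MSC, held at most 18077487. Foxp3, the marker of the cells that the toxin targets, was measured at 0.985 ± 0.542 CPM (counts scaled to the size of each library) in DT and 0.933 ± 0.24 CPM in MSC (SD, n = 4 each), so it was not lower in DT constructs. In DTR its mean was lower, at 0.705 ± 0.315 CPM, with a range of 0.298 to 1.07 CPM that overlapped that of MSC, 0.629 to 1.19 CPM. The study checked Treg depletion by flow cytometry of lymph nodes and spleen, which was not analysed here, and the groups are called toxin-treated after what was given. The defining markers of macrophages were abundant everywhere, with summed levels of 4590 to 12100 CPM, whereas neutrophil markers reached 105 to 1200 CPM and eosinophil markers 4.49 to 60.2 CPM. Osteoblast markers summed to 17.3 to 43.6 CPM, and keratinocyte markers to 0.944 to 281 CPM, highest in DT column 1. The counts of DT were numbered 1, 2, 4 and 5, and the last of these, columns 4 and 5, could not be matched to a labelled replicate.

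Levels of different genes were compared per kilobase of exon. Alox5ap, the protein that presents arachidonic acid to 5-lipoxygenase, had a median over the 24 libraries of 126 CPM per kb, and its lowest library (61.8) lay above the highest library of every other member. Cmklr1 (18.9), Ltb4r1 (17.3) and Lta4h (15.1) followed with ranges that overlapped. Alox15 (9.67) and Ptgs1 (9.05) also overlapped, and so did Fpr2 (5.36), Alox5 (4.8) and Ptgs2 (3.37). Alox12, the platelet-type 12-lipoxygenase, was lowest at 0.315 CPM per kb, and its highest library (0.585) lay below the lowest library of each other member. The members also differed in how steady they were: the highest group mean exceeded the lowest by 1.23-fold for Lta4h and by 6.46-fold for Ptgs2, with the other 8 between 1.54-fold and 2.1-fold.

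**Figure D1:**
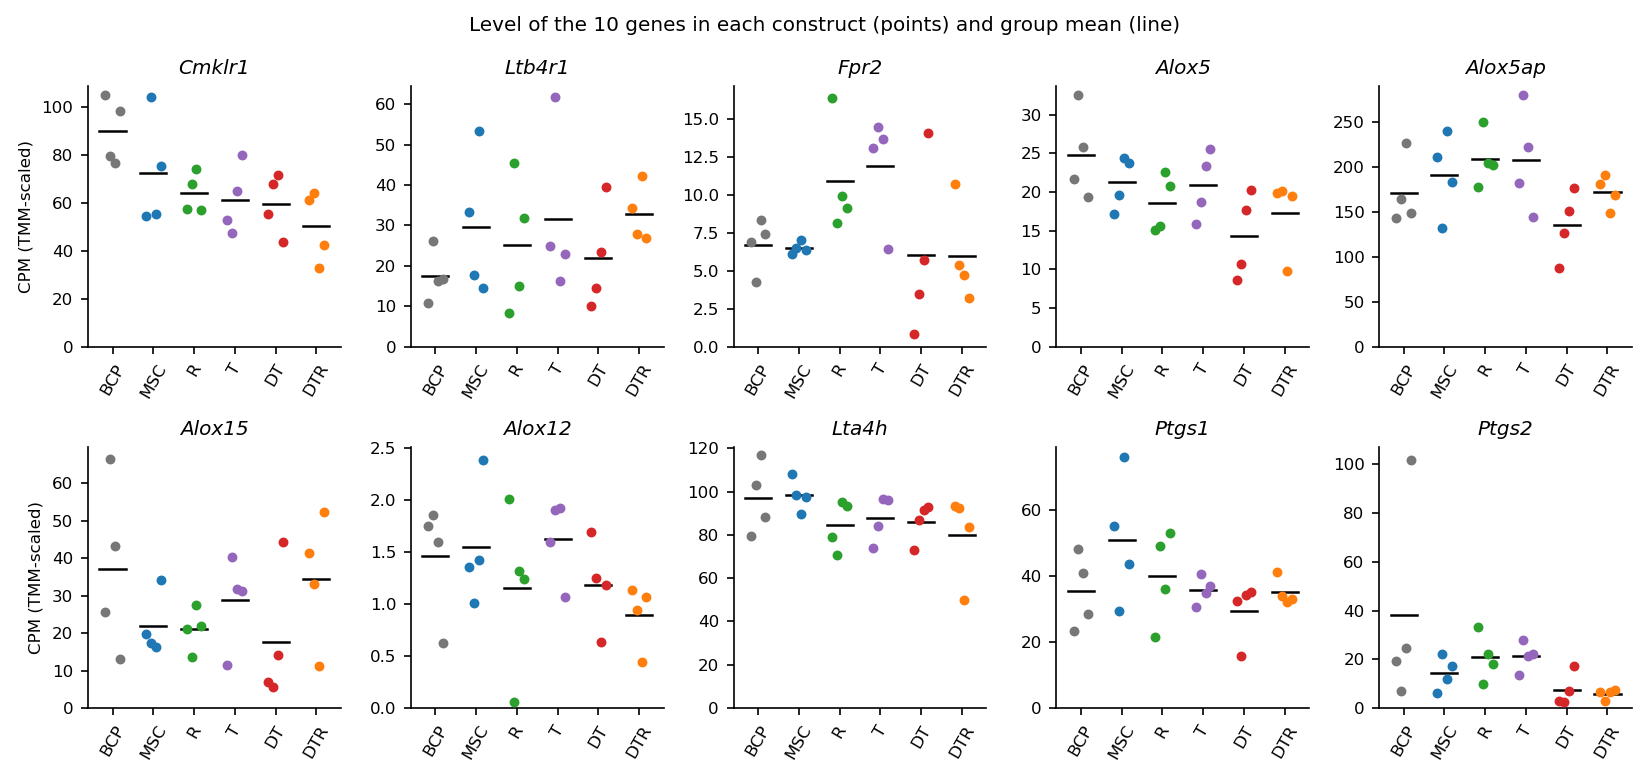
Level of the 10 genes in the 6 groups. The x axis gives the group and the y axis CPM after TMM scaling, starting at 0. Points are the 4 constructs of a group and lines their mean. Cmklr1 ran from a mean of 89.9 in BCP to 50.1 in DTR, while the high Ptgs2 mean of BCP (38.3) rested on 1 construct at 102.

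The tests of group differences came first for the whole set. None of the 10 genes passed an adjusted p of 0.05 in any of the 9 comparisons (edgeR quasi-likelihood test, Benjamini-Hochberg adjustment over 30564 genes), and DESeq2 also called 0 in each. At an unadjusted p under 0.05 edgeR gave 6 of the 90 pairs of gene and comparison, all of them lower in the first group, and over all genes 8.67% of such pairs. The statements below on single genes are therefore of measured levels and their errors, not of calls.

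Cmklr1 (ENSMUSG00000042190.12, GRCm38 chromosome 5, 113612354 to 113650426, minus strand) encodes the receptor that binds chemerin and RvE1. Its levels were 105, 79.3, 76.6 and 98.3 CPM in BCP, 54.6, 104, 55.4 and 75.4 in MSC, and 57.3, 67.6, 74.2 and 57.1 in R. They were 52.6, 47.4, 64.9 and 79.7 CPM in T, 55.4, 67.7, 71.7 and 43.5 in DT, and 61.0, 64.2, 32.8 and 42.5 in DTR. Every BCP construct lay above every R construct, and 5.8% of all genes were likewise lower in R without overlap. The ranges of MSC overlapped with those of all other groups. From highest to lowest the group means were in the order BCP, MSC, R, T, DT and DTR. Neighbours in that order differed by less than the SD of either group, except that BCP (89.9 ± 14.1 CPM) and MSC (72.2 ± 23.0 CPM) differed by more than the SD of BCP.

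For Cmklr1 the difference from BCP was a log2 fold change of -0.49 in R (SE 0.24, unadjusted p = 0.0521, adjusted p = 0.324, edgeR). In T it was -0.56 (SE 0.24, unadjusted p = 0.0289, adjusted p = 0.614, edgeR), and 7.6% of all genes had an unadjusted p under 0.05 in that comparison. Against MSC it was -0.53 in DTR (SE 0.24, unadjusted p = 0.0377, adjusted p = 0.329, edgeR), and -0.27 without MSC replicate 2, the construct at 104 CPM. In that comparison 13.7% of all genes had an unadjusted p under 0.05. Fibroblast markers moved with the gene: the mean log2 CPM of the list was 11.47 in BCP, 11.03 in MSC, 10.79 in R, 10.75 in T, 10.07 in DT and 10.08 in DTR. Their part in these differences was not tested.

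Ltb4r1 (ENSMUSG00000046908.5, chromosome 14, 55765962 to 55768494, plus strand) encodes BLT1, a chemoattractant receptor of neutrophils and activated T cells, on which RvE1 acts as a partial agonist. It read 10.9, 26.1, 16.3 and 16.8 CPM in BCP, 33.2, 17.6, 53.4 and 14.4 in MSC, and 8.19, 45.5, 14.9 and 31.7 in R. In T it read 24.8, 61.8, 16.3 and 22.9 CPM, in DT 9.97, 14.6, 23.5 and 39.6, and in DTR 34.4, 27.8, 42.3 and 26.9. The ranges overlapped in each of the 9 comparisons. No comparison gave an unadjusted p under 0.05 for this gene.

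Fpr2 (ENSMUSG00000052270.7, chromosome 17, 17887824 to 17893952, plus strand) encodes a formyl peptide receptor of phagocytes that also binds lipoxin A4 and annexin A1. It shares exon sequence with Fpr3 on the same strand, so its counts are uncertain by the reads left out there. The 4 MSC constructs lay close together at 6.11, 6.52, 7.0 and 6.4 CPM, and all R constructs lay above them at 16.4, 8.12, 9.91 and 9.11. In T 3 constructs were at 13.1, 14.5 and 13.7 CPM and the fourth at 6.41. BCP gave 6.88, 4.24, 8.35 and 7.43 CPM, DTR 10.7, 5.41, 4.7 and 3.2, and DT the widest spread, with 0.798, 3.49, 5.68 and 14.1. The DT value of 0.798 CPM came from 8 counts in the shallowest library.

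Whether priming of the cells with RvE1 altered its 2 receptors, and Fpr2 beside them, was read from R against MSC. The log2 fold change was -0.17 for Cmklr1 (SE 0.24, from -0.65 to 0.30 at 2 SE), -0.25 for Ltb4r1 (SE 0.52, -1.29 to 0.80) and 0.74 for Fpr2 (SE 0.49, -0.24 to 1.72). Unadjusted p was 0.474, 0.641 and 0.143 and adjusted p 0.933, 0.962 and 0.924 in the same order (edgeR). Fpr2 was the only member whose ranges did not overlap between these groups, as happened in the higher direction for 0.867% of all genes. Of the 10 members 0 passed the adjusted threshold, as for 0% of all genes, and 0 had an unadjusted p under 0.05, against 3.26% of all genes. The neutrophil marker sum was 525 to 700 CPM in R and 304 to 463 CPM in MSC. By mean log2 CPM the same list overlapped, at 3.07 to 4.26 in R and 2.53 to 3.34 in MSC. The part of neutrophil content in the Fpr2 difference was not tested.

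The same genes after daily RvE1 injection were read from DTR against DT. The log2 fold change was -0.25 for Cmklr1 (SE 0.24, -0.73 to 0.23 at 2 SE), 0.58 for Ltb4r1 (SE 0.52, -0.47 to 1.63) and -0.01 for Fpr2 (SE 0.49, -0.99 to 0.97). Unadjusted p was 0.31, 0.281 and 0.979, and adjusted p 0.77, 0.758 and 1.0 (edgeR). The interval was narrower for Cmklr1 than for the other two. The Fpr2 value depended on DT column 5, and without it was 0.83 (unadjusted p = 0.0853, adjusted p = 0.472, edgeR). That of Ltb4r1 was 1.03 without DT column 5 and 0.33 without DT column 1. With the replicate block, a fit that leaves out DT columns 4 and 5, it was 1.56 (unadjusted p = 0.0278, adjusted p = 0.282, edgeR). Of the 10 members 0 passed either threshold, against 0% of all genes at the adjusted and 7.42% at the unadjusted threshold, and 5 were higher and 5 lower, with a median of 0.12 beside 0 for all genes. Leaving out the unmatched DT columns 4 and 5, an alternative chosen after seeing the data, kept only columns 1 and 2 of DT. Relative to the MSC mean of log2 CPM, the members had medians of -1.19 and -0.86 in these. In the dropped columns the medians were -0.28 and -0.06, so a higher DTR over DT was built into this choice. The median log2 fold change was then 0.78, and 5 members had an unadjusted p under 0.05, against 15.6% of all genes. With a replicate block on those samples it was 0.73, again with 5 members, against 14.1% of all genes, and 0 passed adjustment in either fit.

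**Figure D2:**
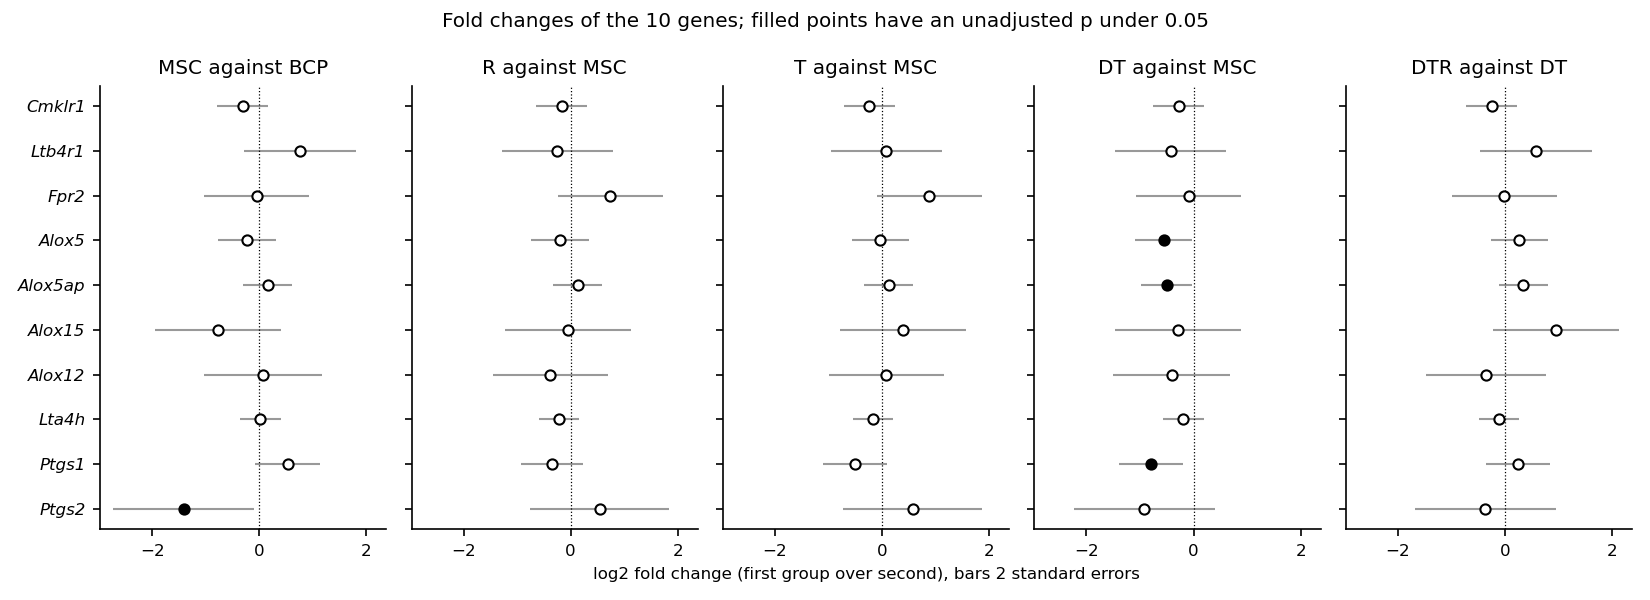
Log2 fold changes of the 10 genes in 5 of the 9 comparisons, the first group over the second. Points are edgeR estimates on the x axis, bars are 2 standard errors either side, and filled points have an unadjusted p under 0.05. All 10 points of DT against MSC lie left of 0, 3 of them filled, and none of the filled points passed adjustment.

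The contrast between the 2 ways of giving RvE1, the injection effect in toxin-treated mice minus the priming effect in the others, called 0 of 10 members, as for 0% of all genes, and 0 at an unadjusted p under 0.05, against 4.45% of all genes. The estimates ran from -0.91 for Ptgs2 to 1.01 for Alox15 on the log2 scale. Dose, route, timing and toxin differ together between these effects and cannot be told apart.

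Alox5 (ENSMUSG00000025701.12, chromosome 6, 116410077 to 116461178, minus strand) encodes 5-lipoxygenase, which begins leukotriene synthesis and completes E-series resolvins. The MSC constructs were at 17.2, 19.6, 24.4 and 23.7 CPM. DT was at 8.57 and 10.7 CPM in columns 1 and 2 and at 17.6 and 20.3 in columns 4 and 5, so that the first pair lay below every MSC construct and the second within them. DTR was at 19.8, 20.1, 9.78 and 19.5 CPM, the third construct standing apart. In the other groups the levels were 19.3 to 32.5 CPM in BCP, 15.1 to 22.6 in R and 15.9 to 25.6 in T.

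Alox5ap (ENSMUSG00000060063.9, chromosome 5, 149264767 to 149288153, plus strand, with an exon that overlaps Gm19719 on the opposite strand) was likewise highest in MSC and lowest in DT among the 3 groups MSC, DTR and DT by their means. Its levels were 211, 132, 240.0 and 184 CPM in MSC and 87.8, 127, 151 and 177 in DT. In DT 2 of the 4 constructs were below every MSC construct. DTR was at 181, 191, 149 and 169 CPM, within the MSC range. BCP spanned 143 to 227 CPM, R 178 to 251 and T 145 to 281.

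Ptgs1 (ENSMUSG00000047250.13, chromosome 2, 36230426 to 36252272, plus strand, overlapped by Gm43621 on the opposite strand) encodes the constitutive cyclooxygenase COX-1. Its levels were 55.1, 29.4, 76.0 and 43.8 CPM in MSC, 32.6, 15.8, 34.4 and 35.3 in DT, and 41.3, 34.1, 32.2 and 33.0 in DTR. Apart from the low DT column 2, both toxin-treated groups formed narrow bands inside the lower MSC range. BCP spanned 23.4 to 48.3 CPM, R 21.7 to 53.2 and T 30.8 to 40.6.

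Toxin treatment of hosts with the same construct, DT against MSC, was the comparison in which the set moved most. All 10 members had a negative log2 fold change, from -0.92 to -0.09, with a median of -0.42 beside -0.04 for all genes. Of them 0 passed the adjusted threshold, against 3.92% of all genes, and 3 had an unadjusted p under 0.05, against 20.3% of all genes, and nothing particular to the members is read from these counts. These 3 were Alox5 at -0.56 (SE 0.27, unadjusted p = 0.0473, adjusted p = 0.239), Alox5ap at -0.50 (SE 0.24, unadjusted p = 0.0456, adjusted p = 0.235) and Ptgs1 at -0.79 (SE 0.30, unadjusted p = 0.0133, adjusted p = 0.132), all from edgeR. Ptgs2 had the lowest estimate, -0.92, with an unadjusted p of 0.175.

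The DT libraries did not share this shift equally. Relative to the MSC mean of log2 CPM, the median over the 10 members was -1.19 in DT column 1, -0.86 in column 2, -0.28 in column 4 and -0.06 in column 5. In column 1 the macrophage marker sum was 4590 CPM, the neutrophil sum 105 CPM and the keratinocyte sum 281 CPM, at a depth of 8482701 counts. In column 2 these were 5560 CPM, 141 CPM and 16.4 CPM. In column 4 they were 8040 CPM, 209 CPM and 11.8 CPM. In column 5 they were 8070 CPM, 589 CPM and 61.2 CPM at 48647413 counts. MSC constructs held macrophage sums of 7200 to 9880 CPM and neutrophil sums of 304 to 463 CPM. Columns 1 and 2 were thus the lowest of DT both in these myeloid marker sums and in the median of the members. By mean log2 CPM of the neutrophil list DT was at 2.41, 2.59, 3.42 and 5.0 in column order and MSC at 2.53 to 3.34. Only column 1 thus lay below the MSC range there, and columns 4 and 5 lay above it. For the macrophage list these were 8.0, 8.19, 8.94 and 8.86 in DT and 8.63 to 8.97 in MSC. In each list of 10, 1 marker passed adjustment as higher in DT and 0 as lower (edgeR), against 3.92% of all genes. The part of cell content in the shift was not tested.

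Without DT column 1 the estimates were -0.40 for Alox5 and -0.35 for Alox5ap, and neither had an unadjusted p under 0.05 (edgeR). Without DT column 2 none of the 3 had, and 8 of the 10 estimates were negative. Without MSC replicate 3, 0 of the 10 members had an unadjusted p under 0.05 (edgeR), with Ptgs1 at -0.53. Without MSC replicate 4, 1 member had, and without MSC replicate 1 or 2, 2 members had. Leaving out the 7 shallowest libraries, an alternative chosen after seeing the data, kept 9 of 10 estimates negative with a median of -0.27, and 0 members were called. Leaving out instead the unmatched columns 4 and 5, also chosen afterwards, gave a median of -1.08 and called 1 member, Alox5, at -1.12 (adjusted p = 0.0238, edgeR), where 10.8% of all genes were called. With a replicate block on the same samples Alox5 had an adjusted p of 0.0584 (edgeR) and 0 members were called, against 8.12% of all genes.

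**Figure D3:**
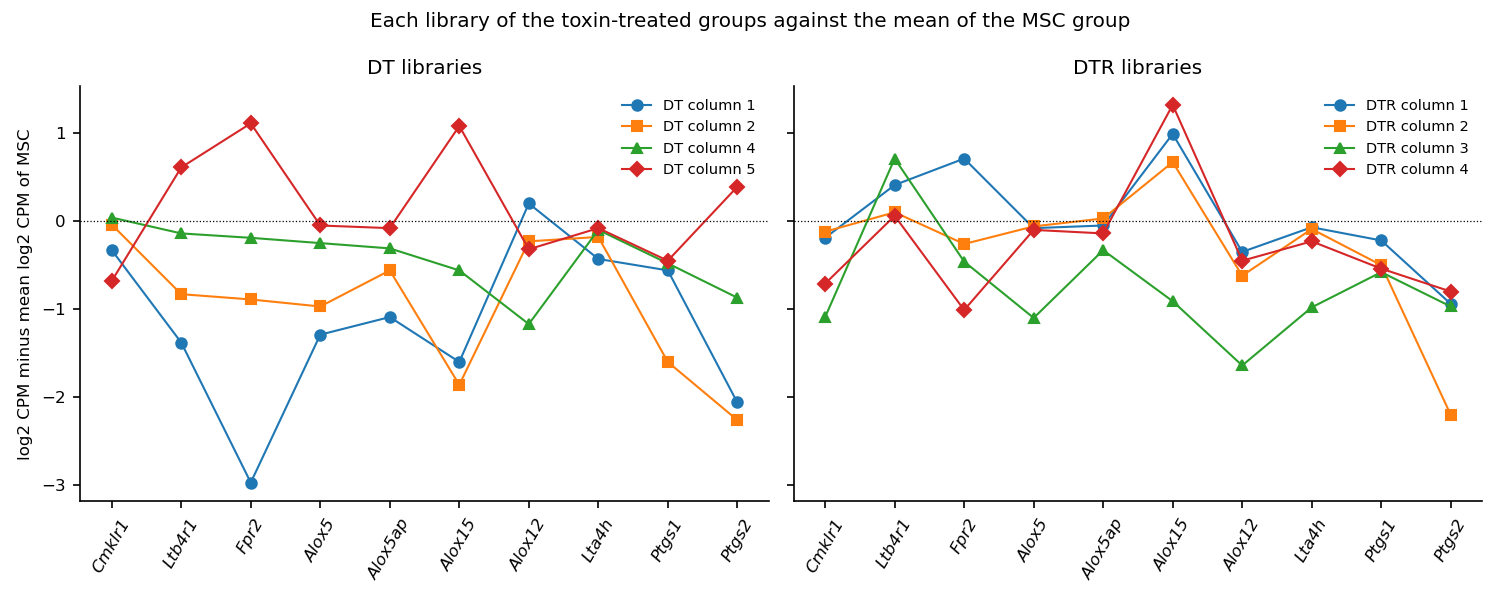
Each library of the toxin-treated groups against the MSC mean. The y axis gives log2 CPM minus the mean log2 CPM of the 4 MSC libraries, the x axis the 10 genes, and each line is 1 library of DT (left) or DTR (right). DT columns 1 and 2 run below the others for most genes. DTR replicate 3 runs below the other DTR libraries for Cmklr1, Alox5, Alox5ap, Alox15, Alox12, Lta4h and, narrowly, Ptgs1.

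DTR against MSC, which shares its MSC samples with the comparison above, gave 8 negative and 2 positive estimates with a median of -0.30, beside -0.04 for all genes. The median was -0.11 without DTR replicate 3 and -0.04 without the 7 shallowest libraries. Again 0 of 10 passed the adjusted threshold, against 0.72% of all genes, and 1 had an unadjusted p under 0.05, Cmklr1 as given above, against 13.7% of all genes. The positive members were Ltb4r1 at 0.15 and Alox15 at 0.66. In DTR replicate 3, a library of 13803176 counts with a fibroblast marker sum of 3760 CPM, the median over the members relative to MSC was -0.94, whereas it was -0.08, -0.10 and -0.34 in replicates 1, 2 and 4.

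Lta4h (ENSMUSG00000015889.8, chromosome 10, 93453411 to 93484875, plus strand) encodes leukotriene A4 hydrolase, which makes leukotriene B4. It was the steadiest member, with group means of 79.9 ± 20.4 CPM in DTR to 98.5 ± 7.52 CPM in MSC (SD, n = 4). All constructs but 1 were between 70.7 and 117 CPM, and the exception was DTR replicate 3 at 49.9 CPM. No comparison gave an unadjusted p under 0.05, and the SE of its log2 fold changes was 0.19, the smallest of the set.

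Alox15 (ENSMUSG00000018924.6, chromosome 11, 70344152 to 70352031, minus strand) encodes 12/15-lipoxygenase of macrophages and eosinophils, an enzyme of lipoxin and resolvin synthesis. Like every other member, it varied more between constructs of a group than between group means (SD of log2 CPM 0.9 and 0.49). Its levels were 25.7, 66.5, 43.3 and 13.2 CPM in BCP and 6.88, 5.71, 14.1 and 44.3 in DT. MSC held 16.2 to 34.2 CPM, R 13.7 to 27.5, T 11.6 to 40.4 and DTR 11.1 to 52.2. All groups overlapped. In DTR against DT its log2 fold change was 0.95 (-0.23 to 2.14 at 2 SE, unadjusted p = 0.122, adjusted p = 0.694, edgeR).

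Alox12 (ENSMUSG00000000320.10, chromosome 11, 70241457 to 70255353, minus strand) was near the limit of the shallow libraries, with 1 to 199 counts per library. The group means were 1.46 CPM in BCP, 1.55 in MSC, 1.16 in R, 1.63 in T, 1.19 in DT and 0.9 in DTR. The lowest library, R replicate 2, had 1 count (0.0602 CPM), below the 3 counts taken as the floor. The platelet markers summed to 136 to 549 CPM over all libraries. The mean log2 CPM of the list was only 0.9 (DT) to 1.32 (MSC) by group, so few of its genes made up the sum. Alox12 had an r of 0.04 with this list over the 24 libraries.

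Ptgs2 (ENSMUSG00000032487.8, chromosome 1, 150100031 to 150108227, plus strand) encodes COX-2, the inducible cyclooxygenase, and spread most between groups. The BCP constructs gave 19.5, 7.2, 24.8 and 102 CPM and the MSC constructs 6.36, 22.1, 11.9 and 17.3. In R the levels were 33.3, 9.81, 22.3 and 18.3 CPM and in T 13.7, 27.9, 21.5 and 22.4. DT gave 3.09, 2.7, 7.13 and 17.2 CPM and DTR 6.79, 2.81, 6.64 and 7.46. DTR had the lowest mean, and its range overlapped with those of MSC and DT, the groups it was compared with.

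The RefSeq table of promoter windows (GRCm38.p6) covered 8 of the 10 members, without Alox5ap and Alox15. Those of Ptgs2 and Lta4h are shown because these genes had the widest and the narrowest ratio of group means. Each stretch runs 5′ to 3′ on the gene's strand from 250 bases before to 30 bases after the annotated start, and capitals mark each CG pair.
Ptgs2 (chr1:150099781-150100060, plus strand): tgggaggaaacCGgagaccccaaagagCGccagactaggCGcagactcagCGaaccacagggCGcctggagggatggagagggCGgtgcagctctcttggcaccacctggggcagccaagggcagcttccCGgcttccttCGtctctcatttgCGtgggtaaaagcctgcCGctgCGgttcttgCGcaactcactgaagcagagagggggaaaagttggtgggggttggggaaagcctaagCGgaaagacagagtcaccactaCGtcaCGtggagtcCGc
Lta4h (chr10:93453146-93453425, plus strand): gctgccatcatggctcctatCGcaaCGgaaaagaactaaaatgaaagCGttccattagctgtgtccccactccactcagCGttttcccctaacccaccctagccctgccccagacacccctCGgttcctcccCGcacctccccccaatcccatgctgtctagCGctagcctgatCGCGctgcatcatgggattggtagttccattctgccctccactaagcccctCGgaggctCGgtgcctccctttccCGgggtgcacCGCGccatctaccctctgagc

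Both full windows of 300 bases held 16 CG pairs, with a median of 7 over 32851 windows of the same length, so this count was the same for the steady gene and the variable one. Near its start the Ptgs2 window held the letters CGTCA, part of the cAMP response element, running by 2 letters into CACGTG, an E-box. On both strands CGTCA occurred in 20.8% and CACGTG in 7.15% of all windows. Of the 8 members' windows, CGTCA was found only in that of Ptgs2 and CACGTG in those of Ptgs2 and Cmklr1. The Cmklr1 window, 113643554 to 113643853, lay inside the gene span given above and not at its 5′ end. TATAAA was found in that of Fpr2 and in 13.6% of all windows. These matches describe letters and not bound sites.

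Addition of MSC to the granules, MSC against BCP, gave 5 positive and 5 negative members with a median of -0.01 beside 0.06 for all genes. Of the 10, 0 passed the adjusted threshold, against 0% of all genes, and 1 had an unadjusted p under 0.05, against 5.06% of all genes. This was Ptgs2 at -1.41 (SE 0.66, unadjusted p = 0.0466, adjusted p = 0.888, edgeR). Without BCP replicate 4, the construct at 102 CPM, it was -0.25.

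Primed cells against bare granules gave similar counts. In R against BCP 4 members were positive and 6 negative, 0 passed the adjusted threshold, against 0% of all genes, and 0 had an unadjusted p under 0.05, against 15.6% of all genes. Cmklr1 alone was lower without overlap, as were 5.8% of all genes. In T against BCP 5 were positive and 5 negative, 0 passed the adjusted threshold, against 0% of all genes, and Cmklr1 alone had an unadjusted p under 0.05.

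Against MSC and against R, Treg coculture left no member past either threshold in the fit of all 24 libraries without covariates. In T against MSC 0 of 10 passed, against 0% of all genes at the adjusted and 2.72% at the unadjusted threshold, with estimates from -0.51 for Ptgs1 to 0.88 for Fpr2. In T against R, the direct comparison of the priming strategies, 0 of 10 passed, against 0% and 2.37% of all genes, with estimates from -0.16 to 0.47. Without the 7 shallowest libraries Fpr2 stood at 1.08 in T against MSC and at 0.86 in R against MSC (unadjusted p = 0.0127 and 0.0402, adjusted p = 0.81 and 0.989, edgeR). In T against MSC 1 member also had an unadjusted p under 0.05 with the depth covariate, the replicate block or only the 2 groups (edgeR). Over all genes these fits gave 891 of 30564, 535 of 30092 and 459 of 26262.

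Around the members, 55 further genes of lipid mediator biology were counted by role, in a list made with earlier results of these data known. All 55 were tested. In DT against MSC 3 passed the adjusted threshold as higher and 0 as lower, in DTR against MSC 1 as higher and 0 as lower, where 3.92% and 0.72% of all genes passed in either direction, and in the other 7 comparisons 0 in either direction (edgeR). In those 7, DESeq2 also called 0, and edgeR gave between 0 and 5 of the 55 an unadjusted p under 0.05, against 2.37% to 15.6% of all genes. In DT against MSC DESeq2 called the same 3 as higher, and 4 as lower (Pla2g4f, Ptgis, Ptgir and Tbxa2r). In that comparison DESeq2 called 2895 of 30476 genes in either direction.

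The 3 genes higher in DT were lipoxygenases known from the epidermis. Aloxe3, a hydroperoxide isomerase of the skin barrier, was at 5.18, 3.16, 0.894 and 0.315 CPM in DT and 0.246, 0.382, 0.0497 and 0.223 in MSC (log2 fold change 3.36, SE 0.80, adjusted p = 0.0169, edgeR). Alox12e, an epidermis-type 12-lipoxygenase, was at 13.8, 15.7, 1.2 and 16.2 CPM in DT and 1.26, 1.16, 1.41 and 1.87 in MSC (3.04, SE 0.85, adjusted p = 0.0488). In DTR it was at 7.61, 1.68, 12.4 and 64.0 CPM (3.90, SE 0.89, adjusted p = 0.0416). So 3 of 4 DT constructs exceeded all MSC constructs for Alox12e, as did 3 of 4 DTR constructs, the lower DTR construct at 1.68 lying inside the MSC range.

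Alox12b, the 12R-lipoxygenase that acts before Aloxe3 in the skin, had 13, 0, 16 and 28 counts in DT and 0, 0, 1 and 1 in MSC (adjusted p = 0.0268, edgeR). Its pooled level was 35.6 times that of MSC, with an exact 95% interval of 9.41 to 301 that covers counting error only. Of 6 keratinocyte markers 3, Krt10, Krt1 and Lor, also passed as higher in DT, with a median log2 fold change of 3.20 for the list. These marker calls were lost without DT column 1, without any single MSC library and with DESeq2, and in DTR 0 passed. The keratinocyte sum was 281, 16.4, 11.8 and 61.2 CPM in DT, 1.9 to 61.8 in DTR and 1.92 to 29.8 in MSC, and its part in the lipoxygenase differences was not tested. The calls rested on few libraries: of the 3 in DT against MSC, 0 were left without DT column 1, without MSC replicate 1 or without MSC replicate 3, 1 was left without DT column 2 (Alox12b), MSC replicate 2 or MSC replicate 4 (Aloxe3 in both), and 0 were left in a fit of only the 2 groups. The Alox12e call in DTR was lost without any single MSC library and without DTR replicate 3 or 4.

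**Figure D4:**
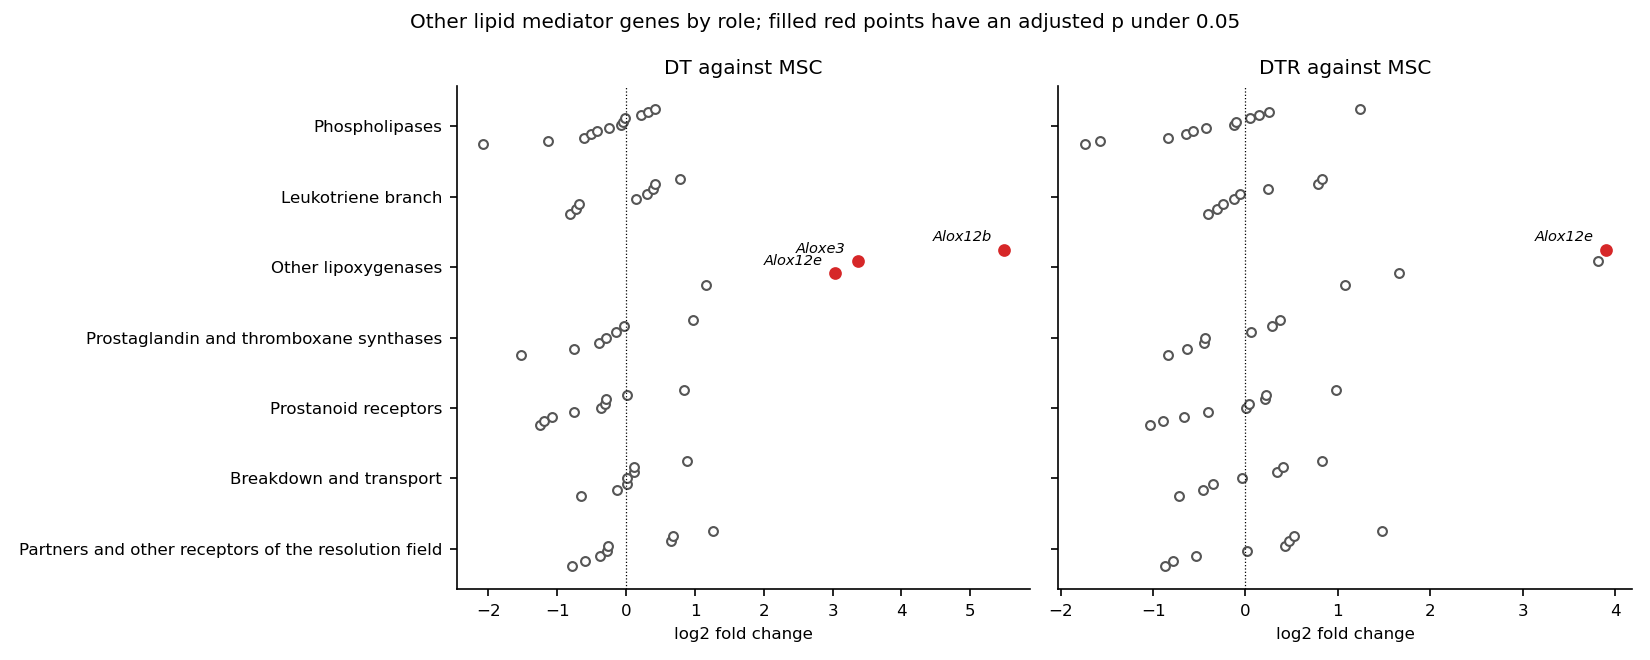
Log2 fold changes of 55 other lipid mediator genes by role, in DT (left) and DTR (right) against MSC. Each point is a gene, the x axis gives the edgeR log2 fold change, and filled red points have an adjusted p under 0.05. The filled points are 3 lipoxygenases of the skin in DT and Alox12e in DTR. The position of Alox12b depends on the prior count, since the MSC libraries held at most 1 count each.

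On the lower side of DT against MSC 0 of the 55 passed adjustment, against 664 of 30564 genes. At an unadjusted p under 0.05, 9 of the 55 were lower, against 3257 of 30564 genes (edgeR). The 0 after adjustment depended on the fit: Ptgir passed as lower with RLE normalization, with the filterByExpr filter and without DT column 4. Without the unmatched columns 4 and 5, which left only columns 1 and 2 of DT, 9 passed as lower. With a replicate block on the same samples 7 did. Ptgis, Tbxas1, Ptger4, Ptgir, Anxa1 and Cysltr1 passed in both. These fits called 10.8% and 8.12% of all genes in either direction. Over all 24 libraries the smallest adjusted p on the lower side was that of Ptgir, the prostacyclin receptor. Ptgir was at 22.2 ± 12.9 CPM in DT and 47.0 ± 5.76 CPM in MSC (SD, n = 4, log2 fold change -1.07, adjusted p = 0.0582, edgeR). Ptgis, the prostacyclin synthase, was at 22.4 ± 12.0 and 64.9 ± 40.3 CPM (-1.53, adjusted p = 0.0994), and Tbxas1, the thromboxane synthase of macrophages and platelets, at 88.9 ± 36.4 and 151 ± 36.7 CPM (-0.76, adjusted p = 0.121). The other 6 were Pla2g4f, Tbxa2r, Ptger4, Ptgr1, Cyp4f18 and Anxa1. By role, 7 of 9 prostanoid receptors and 6 of 7 synthases had negative estimates, with medians of -0.37 and -0.30 beside -0.04 for all genes.

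The ligand of Cmklr1, chemerin, and its other receptors were read alongside. Rarres2, which encodes chemerin, was at 107 ± 23.2 CPM in BCP, 167 ± 53.4 in MSC, 178 ± 96.4 in R, 269 ± 120.0 in DT and 241 ± 65.7 in DTR, and passed in no comparison. Gpr1, a further chemerin receptor, was at 0.666 ± 0.572 CPM in MSC and 1.59 ± 0.635 in DT (log2 fold change 1.26, adjusted p = 0.191, edgeR). Ccrl2, which binds chemerin without signalling, was at 22.5 ± 4.45 CPM in MSC and 13.0 ± 4.31 in DTR (-0.78, adjusted p = 0.328, edgeR). Anxa1, whose product acts on Fpr2, was at 1410 ± 279 CPM in MSC and 933 ± 413 in DT. None of these 4 genes passed in any comparison over all 24 libraries with edgeR, whereas DESeq2 called Gpr1 higher in DTR than in MSC. With edgeR Gpr1 also passed as higher in DT without MSC replicate 4, and Anxa1 as lower in DT without the unmatched columns, with and without the replicate block.

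Over the 24 libraries the members fell into loose patterns, given as descriptions because all values share library depth and cell content. The pairs with the highest Pearson r of log2 CPM were Alox5 with Alox15 (0.79), Alox5 with Lta4h (0.71) and Fpr2 with Alox5ap (0.70). The RvE1 receptors did not run together, with an r of -0.51 between Cmklr1 and Ltb4r1. With marker lists, Alox5 had its highest r with macrophages (0.85), Lta4h likewise (0.76), Cmklr1 with fibroblasts (0.82) and Fpr2 with dendritic cells (0.73) and neutrophils (0.70). Alox15 had an r of 0.69 with both macrophages and eosinophils.

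**Figure D5:**
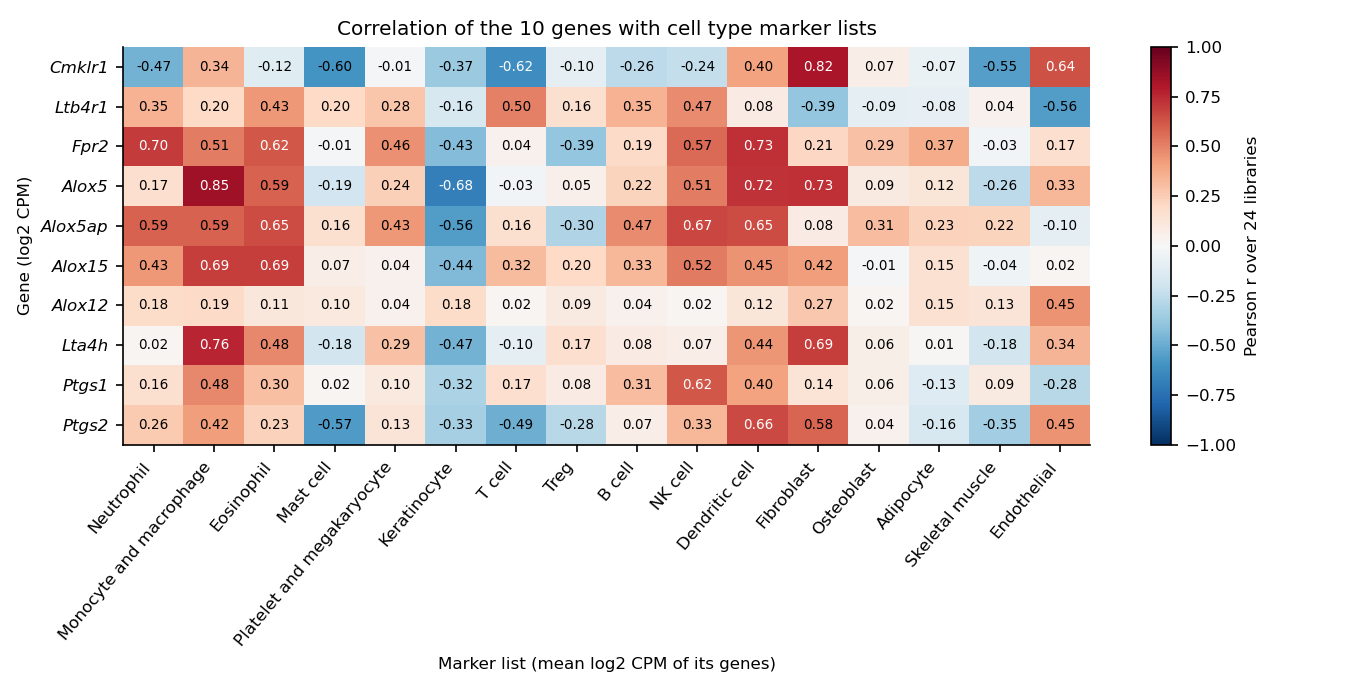
Pearson r of log2 CPM between each of the 10 genes (rows) and the mean log2 CPM of 16 cell type marker lists (columns) over 24 libraries, in colour and as numbers. Cmklr1 has 0.82 for fibroblasts and -0.47 for neutrophils, and Alox5 (0.73), Lta4h (0.69) and Ptgs2 (0.58) are also high for fibroblasts.

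Among genes with a median of at least 1 CPM, those most like each member over the 24 libraries included genes of known leukocyte types. For Alox5 the first was Siglecf (r = 0.92), a sialic acid receptor of eosinophils and some macrophages, and for Alox15 it was Il5ra (0.83), the interleukin-5 receptor of eosinophils. Fpr2 was followed by Eef1akmt2 (0.91) and Fpr1 (0.91), its neighbour in the formyl peptide receptor family, and Ptgs2 by Il1b (0.83), which encodes interleukin-1β. For Alox5ap they were Prr13, Efhd2 and Mthfs (each 0.96), for Lta4h Gnai2 (0.92), for Cmklr1 Uprt (0.91), Ptk2 and Arsb (0.90 each), for Ltb4r1 Shmt2 (0.91) and Mif (0.90), for Ptgs1 Glb1 and Lgi3 (0.82 each), and for Alox12 Bend5 (0.82).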

How the data were processed

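The authors made stranded mRNA libraries from whole constructs, sequenced them as paired ends, aligned them with HISAT2 2.0.5 and counted pairs on exons with featureCounts 1.5.2 and GENCODE M13. The deposited values are raw counts per gene for 51138 genes. The counting command sets no strand and no multi-mapping option, so reads are not told apart by strand. Reads shared by overlapping genes, antisense partners among them, or by copies are not counted. It lists 28 alignment files, of which 4 have no column in the table and were not analysed here.

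For testing, the counts went into edgeR 4.0.16 under R 4.3.3 (TMM, robust quasi-likelihood fit, 24 samples in 6 groups, at least 10 counts over all samples, 30564 genes, Benjamini-Hochberg adjustment), in 9 comparisons and 1 contrast. The SE is the log2 fold change divided by the square root of the F statistic. CPM carries TMM scaling, and log2 CPM a prior count of 2. The floor of 3 counts was 0.0208 CPM in the deepest and 0.354 CPM in the shallowest library, and covers counting error only. Alternatives were RLE normalization, other filters, DESeq2 1.42.0, 2-group fits, a depth covariate, a replicate block and each library left out. Fits were tested on simulated data. Tables were handled in Python 3.11.15 with pandas 2.3.3 and figures drawn with matplotlib 3.10.9.

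Symbols and positions are those of GRCm38 (GENCODE M21 positions equal the deposited ones for all 10 genes). The members and gene lists were chosen with earlier results of these data known. Fold changes are given singly where an unadjusted p was under 0.05 and for Cmklr1, Ltb4r1 and Fpr2 in R against MSC and DTR against DT. A few other fold changes, and the promoters to show, were picked with their values in view. The DT columns numbered 4 and 5 entered as members of their group without a replicate number. The 4 samples of a group come from separate animals per the study's methods.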

Additional observations from a re-analysis of the deposited data

Results flagged for a closer look

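In 6 of the 60 sets of 4 constructs (10 genes in 6 groups) 1 construct stood far from the other 3 by Dixon's test of log2 CPM, which marks about 1 in 20 sets by chance. Fpr2 in T replicate 4 was at 6.41 CPM, with the others at 13.1 to 14.5. Alox5 in DTR replicate 3 was at 9.78 CPM, with the others at 19.5 to 20.1. Alox12 was at 0.629 CPM in BCP replicate 4, with the others at 1.6 to 1.86, and at 0.0602 CPM, or 1 count, in R replicate 2, with the others at 1.24 to 2.01. Ptgs1 in DT column 2 was at 15.8 CPM, with the others at 32.6 to 35.3. Ptgs2 in DTR replicate 2 was at 2.81 CPM, with the others at 6.64 to 7.46. All 6 constructs were the lowest of their group, and 4 of them were among the 7 shallowest libraries.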

How the results depend on the processing

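The count of members called at an adjusted p under 0.05 was 0 in 176 of the 177 alternative fits of the 10 comparisons. The exception was DT against MSC without the 2 unmatched DT columns and with no replicate block, where it was 1 (Alox5, -1.12). With the replicate block on those samples it was 0, and the block gave no other call. Same-numbered samples of different groups did not deviate together (median r = 0.02 over 50 pairs, 19 of them over 0.1), so the numbers do not pair them.

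Of 204 alternative values of the 12 single fold changes 189 kept direction and side of the threshold and 14 turned sign. For Fpr2 in DTR against DT these were 0.01 with RLE and with DESeq2, 0.06 with the depth covariate, 0.08 without the 7 shallowest libraries, 1.46 with the replicate block, 1.45 without the unmatched columns and no replicate block, and -0.45 to 0.83 with single libraries left out. Cmklr1 in DTR against DT was 0.06 without the 7 shallowest libraries. In R against MSC Cmklr1 ran from -0.29 to 0.05 and Ltb4r1 from -0.70 to 0.20 with single libraries left out. The cause was not tested. None of the 60 group means moved by over 1 SD without TMM factors. With 4 animals per group the SE of 0.19 to 0.67 log2 units limits what can be seen, and Alox12 is limited by counting.

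Calls over all genes in DT against MSC were 1198, and 2895 with DESeq2, 157 on only the 2 groups, 630 without the 7 shallowest libraries and 3245 without the unmatched columns. In DTR against DT they were 0, and 695 without the unmatched columns, or 344 with the replicate block. In DTR against MSC they were 220, and 1112, 40, 13 and 353 in the same order.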
